A study of Mus musculus with 20 samples.

Results

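The Slco1 genes of mouse chromosome 6 form a cluster that codes for uptake transporters of the liver cell surface, and 7 of its genes are described here in the livers of mice selected for body mass. The members were taken as a list of symbols, *Slco1a1*, *Slco1a4*, *Slco1a5*, *Slco1a6*, *Slco1b2*, *Gm6614* and *Gm30784*, and matched to the Ensembl gene IDs of the count files, so they are 7 of 55573 gene IDs. Of the 13783 genes with enough reads to be tested, 5 are members, while *Slco1a5* and *Slco1a6* had too few reads. They were chosen by their measured levels in these same mice over the 4 groups, in particular by those of *Gm6614* and *Gm30784*, and by their place in the cluster. The fold changes of the members are therefore given as a description, without a test. Where members past a threshold are counted below, this too is a description. The tests read as results concern genes outside the list.

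Liver RNA was sequenced from 20 male mice in 4 groups of 5. Titan is a line selected over many generations for high body mass, and the controls are the unselected FZTDU line from the same founders. Both lines were bred in Dummerstorf, and the mice received a standard breeding feed. Each line was sampled at 11 weeks of age and at 19–21 weeks. FZTDU descends from crosses of outbred and inbred stocks and was mated at random, so the control mice need not share 1 genotype, and a difference between the lines is a difference between 2 populations. Whole liver was used, so fewer cells of a type and less RNA per cell cannot be told apart.

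Organic anion transporting polypeptides, the products of the Slco genes, carry bile acids, bilirubin conjugates, steroid and thyroid hormone conjugates and many drugs into cells without using the sodium gradient. In the liver they sit on the blood-facing membrane of hepatocytes, beside the sodium-dependent bile acid carrier *Slc10a1*, and hand their cargo to enzymes and to the export pumps of the bile canaliculus. Several of the mouse genes are also known for a difference between the sexes that follows the pulses of growth hormone, *Slco1a1* being higher in males and *Slco1a4* higher in females.

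The cluster spans 693.5 kb of chromosome 6 in GRCm38. *Slco1b2* (141629518 to 141686646, plus strand) is separated by 118.8 kb from *Slco1a4* (141805440 to 141856199, minus strand). *Gm30784* (141866358 to 141875220), a lincRNA on the plus strand, starts 10.2 kb beyond the 5′ end of *Slco1a4* and ends 32.1 kb before the 3′ end of *Slco1a1* (141907282 to 141946962, minus strand). *Gm6614* (141971845 to 142011414), annotated as protein coding, follows 24.9 kb further on the minus strand, and after another 74.3 kb come *Slco1a6* (142085761 to 142208521) and *Slco1a5* (142234227 to 142322981), both also on the minus strand. The longest transcript of *Gm6614* was 86.3% identical to that of *Slco1a1* over 1732 aligned bases and 86.2% identical to that of *Slco1a4* over 2049. *Gm5724*, a further protein-coding gene of this kind between *Slco1b2* and *Slco1a4*, is no member and had at most 3 reads in a mouse.

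The promoters of 4 members are shown because their levels set the groups apart (*Gm6614*, *Gm30784* and *Slco1a1*) or because the gene was the highest of the cluster per length (*Slco1b2*). Each runs from 250 bases before to 50 bases after the RefSeq start, 5′ to 3′ on the strand of the gene, in GRCm38.p6. All 7 members have such an entry in RefSeq. The letters are those of the reference mouse, not of the Titan or FZTDU line, whose sequences were not analysed here. Capitals mark matches to the motifs searched, on either strand.
Slco1b2 (chr6:141629268-141629567, plus strand): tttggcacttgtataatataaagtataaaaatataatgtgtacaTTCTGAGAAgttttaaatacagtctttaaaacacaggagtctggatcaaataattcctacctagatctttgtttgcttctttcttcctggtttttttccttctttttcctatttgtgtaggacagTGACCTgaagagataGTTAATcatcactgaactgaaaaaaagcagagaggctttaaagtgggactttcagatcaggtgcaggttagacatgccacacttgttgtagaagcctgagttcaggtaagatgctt
Gm30784 (chr6:141866106-141866405, plus strand): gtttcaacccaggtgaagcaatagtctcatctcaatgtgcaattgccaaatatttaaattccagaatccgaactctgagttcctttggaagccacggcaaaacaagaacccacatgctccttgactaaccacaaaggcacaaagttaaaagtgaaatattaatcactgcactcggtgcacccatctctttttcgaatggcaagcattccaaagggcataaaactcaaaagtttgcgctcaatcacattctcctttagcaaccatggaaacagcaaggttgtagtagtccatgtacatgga
Slco1a1 (chr6:141946913-141947212, minus strand): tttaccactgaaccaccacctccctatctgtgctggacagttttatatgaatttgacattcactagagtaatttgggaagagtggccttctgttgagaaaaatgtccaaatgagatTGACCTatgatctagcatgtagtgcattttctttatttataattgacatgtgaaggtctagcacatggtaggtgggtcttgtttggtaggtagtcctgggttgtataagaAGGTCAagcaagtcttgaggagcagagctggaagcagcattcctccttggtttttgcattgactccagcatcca
Gm6614 (chr6:142008696-142008995, minus strand): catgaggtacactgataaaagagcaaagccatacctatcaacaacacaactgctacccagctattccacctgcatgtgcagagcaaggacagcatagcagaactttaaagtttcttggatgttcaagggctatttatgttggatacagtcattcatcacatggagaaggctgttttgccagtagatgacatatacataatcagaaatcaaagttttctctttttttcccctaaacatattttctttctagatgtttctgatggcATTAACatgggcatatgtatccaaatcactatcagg
The RefSeq start of *Gm6614* lies 2669 bases inside the gene as annotated by GENCODE.

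The motifs, searched on both strands, were TTCNNNGAA for STAT5, the factor that carries the growth hormone signal, GTTAAT as an arm of the HNF1 site, the full HNF1 palindrome, AGGTCA as an arm of the HNF4 site, and the HNF4 direct repeat of that arm with 1 base between. The arms overlap with the full sites by design. *Slco1b2* holds TTCTGAGAA at position -206 from its start, GTTAAT at -66 and, on the other strand, the HNF4 arm at -81 (TGACCT as printed). *Slco1a1* holds AGGTCA at -24 and the same arm on the other strand at -134. *Gm6614* holds the HNF1 arm on the other strand (ATTAAC as printed) 14 bases after its start, and *Slco1a5* has a match to the STAT5 motif in the second of its promoters at -235. No match was found in the windows of *Gm30784*, *Slco1a4* and *Slco1a6*. Among 32851 promoters of the same 300 bases, 8.3% hold the STAT5 motif, 7.1% the HNF1 arm, 16.3% the HNF4 arm, 0.00913% the HNF1 palindrome and 0.0396% the HNF4 direct repeat. A match of letters is a description and does not show that the factor binds.

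Counts of reads on the strand of each gene were used throughout. Reads on genes ranged from 6794935 to 23295028 per mouse, with a median of 12547300. The hepatocyte marker list was high in every mouse, with a summed level of 78560 to 113400 CPM (reads on a gene scaled to 1000000 reads on genes, with TMM normalization) over the groups and no marker at 0. The 7 kidney tubule markers were examined because *Slco1a1* and *Slco1a6* are also kidney genes. They reached at most 2 reads per gene in a mouse, too few to be tested, and *Slc22a6* and *Kap* were at 0. The markers of hepatocytes around the central vein summed to 2562 to 4140 CPM in young Titan mice and 4384 to 6062 CPM in young controls without overlap, and to 4754 to 6074 CPM in older controls and 4354 to 6340 CPM in older Titan mice. Of these 10 markers, 6 were lower in Titan mice at 11 weeks and 1 at 19–21 weeks (edgeR, adjusted p under 0.05). *Glul*, *Axin2* and *Rhbg*, not called, had log2 fold changes of 0.06, 0.07 and 0.38 at 11 weeks. Of 9 markers of hepatocytes around the portal vein, 3 were lower at each age. Of the 10 markers of hepatocytes in general, 3 were lower at 11 weeks and 1 at 19–21 weeks. Of all tested genes, 7.69% and 4.88% were lower at the 2 ages. The part of these markers in the results below was not tested. The lists for macrophages of the liver (69.2 to 227 CPM) and for bile duct cells (14.8 to 64.0 CPM) overlapped between all groups.

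In level per length the cluster was carried by *Slco1b2* and *Slco1a1*. *Slco1b2*, the mouse counterpart of the human liver transporters OATP1B1 and OATP1B3, made up 59.0% ± 2.11 (SD, n = 5) of the summed CPM per kb of the 6 protein-coding members in young controls, 51.7% ± 1.73 in young Titan mice, 52.0% ± 3.16 in older controls and 53.1% ± 2.42 in older Titan mice. *Slco1a1* made up 39.9% ± 1.96, 45.9% ± 1.43, 45.8% ± 2.97 and 43.5% ± 2.80 in the same order. The young controls had the lowest share of *Slco1a1*, 37.2% to 42.4%, without overlap with the young Titan mice at 43.6% to 47.2%, and the older groups covered the range between. Ranked by level per length among the 13783 tested genes, *Slco1b2* held place 141 in young controls and 98 in older Titan mice, and *Slco1a1* moved from place 210 in young controls to between 116 and 125 in the other groups. Reads of the whole cluster were 0.237% ± 0.0150 of reads on genes in young controls, 0.325% ± 0.0211 in young Titan mice, 0.332% ± 0.0528 in older controls and 0.373% ± 0.0565 in older Titan mice.

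*Slco1a1* codes for OATP1A1, which takes up bile acids and steroid conjugates and is the transporter of the cluster with the clearest male predominance in mouse liver. Its level in the 5 young controls was 960, 984, 1000, 1088 and 1092 CPM. In the 5 young Titan mice it was 1526, 1548, 1549, 1560 and 1564 CPM. The groups did not overlap, with a wide gap between the highest young control and the lowest young Titan mouse.

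At 19–21 weeks the 5 controls had 1268, 1504, 1521, 1631 and 1969 CPM of *Slco1a1* and the 5 Titan mice 1300, 1444, 1698, 1721 and 1802 CPM. The older groups covered nearly the same range, and the young controls were the group apart. The log2 fold change of Titan against control was 0.60 (SE 0.10) at 11 weeks and 0.01 (SE 0.10) at 19–21 weeks. With age it was 0.62 (SE 0.10) in controls and 0.04 (SE 0.10) in Titan mice.

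The young Titan mice were more alike in *Slco1a1* than the mice of the other groups. Their SD was 0.955% of the mean, against 5.98% in young controls, 16.2% in older controls and 13.3% in older Titan mice. Counting error alone, taken as the square root of the reads, comes to 0.519% to 0.801% of the value in young Titan mice, so their spread was close to that of counting. For *Slco1b2* the same 5 mice had an SD of 5.76% of the mean, and for *Slco1a4* of 16.9%. No test of the spread was made.

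*Slco1b2* codes for OATP1B2, the main carrier of unconjugated bile acids and of bilirubin conjugates that return from the blood. In young controls its levels were 1248, 1270, 1492, 1534 and 1570 CPM, and in young Titan mice 1545, 1564, 1622, 1658 and 1782 CPM. Older controls had 1528, 1549, 1597, 1681 and 1983 CPM, and older Titan mice 1420, 1729, 1929, 2013 and 2017 CPM. Every pair of groups overlapped. In the order of the means, 1423 ± 152 CPM in young controls, 1634 ± 94.1 in young Titan mice, 1668 ± 186 in older controls and 1822 ± 253 in older Titan mice (SD, n = 5), the first step was larger than the SDs of its groups and the later steps were smaller. The log2 fold change of Titan against control was 0.20 (SE 0.11) at 11 weeks and 0.13 (SE 0.10) at 19–21 weeks, and that with age 0.23 (SE 0.10) in controls and 0.16 (SE 0.10) in Titan mice.

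The ratio of *Slco1a1* to *Slco1b2* within a library does not depend on sequencing depth or on scaling. It was 0.677 ± 0.0568 (SD, n = 5) in young controls, 0.888 ± 0.0560 in young Titan mice, 0.885 ± 0.102 in older controls and 0.822 ± 0.0900 in older Titan mice. The highest young control had 0.748 and the lowest young Titan mouse 0.800, so the young groups did not overlap in this measure either. Older controls reached down to 0.705, into the range of the young controls.

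*Slco1a4* codes for OATP1A4, a carrier of bile acids and digoxin in the liver and at the blood-brain barrier that is female-predominant in mouse liver. Young controls had 24.8, 29.4, 32.1, 39.9 and 45.1 CPM, and young Titan mice 48.0, 54.3, 64.0, 66.9 and 74.1 CPM. Older controls had 42.5, 62.1, 62.3, 101 and 114 CPM, and older Titan mice 60.1, 74.0, 102, 108 and 110 CPM. The young groups did not overlap, although the gap between them was only that from 45.1 to 48.0 CPM, and the older groups overlapped widely. The log2 fold change of Titan against control was 0.85 (SE 0.23) at 11 weeks and 0.25 (SE 0.23) at 19–21 weeks, and that with age 1.16 (SE 0.23) in controls and 0.56 (SE 0.23) in Titan mice. *Slco1a4* thus had its lowest level in the same group as *Slco1a1*, while its share of the cluster's level per length stayed small, between 1.10% ± 0.271 in young controls and 2.05% ± 0.498 in older Titan mice.

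**Figure D1:**
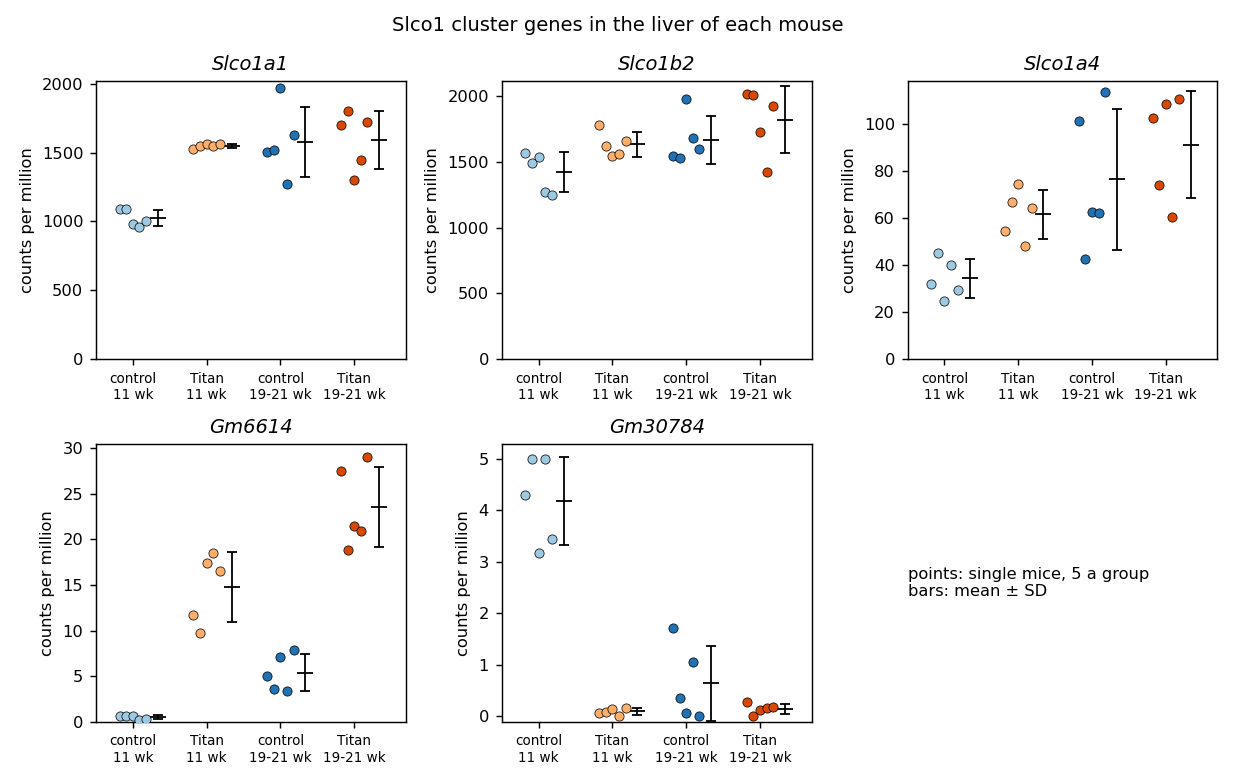
CPM of the 5 members with enough reads in each of 20 mice (points) with the mean and SD of the group (bars), on a linear scale for each gene. Slco1a1, Slco1a4 and Gm6614 were lowest in controls of 11 weeks, where Gm30784 was highest at 3.17 to 5.00 CPM.

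*Gm6614* is annotated as protein coding, and its transcript resembles those of the Slco1a genes. Its level in the young controls was 0.244, 0.345, 0.644, 0.666 and 0.675 CPM, from 4 to 13 reads per mouse. The young Titan mice had 9.77, 11.7, 16.6, 17.4 and 18.5 CPM, from 125 to 394 reads. The older controls lay between them, with 3.43, 3.61, 4.97, 7.07 and 7.89 CPM, and the older Titan mice had the highest levels, 18.9, 20.9, 21.5, 27.5 and 29.1 CPM. No group overlapped with another, in the order young control, older control, young Titan, older Titan; the highest young and the lowest older Titan mouse, at 18.5 and 18.9 CPM, were close. This order is that of the group means 0.515 ± 0.205, 5.39 ± 2.02, 14.8 ± 3.81 and 23.6 ± 4.44 CPM (SD, n = 5).

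The log2 fold change of *Gm6614* in Titan against control was 4.84 (SE 0.30) at 11 weeks and 2.10 (SE 0.23) at 19–21 weeks. In summed reads, 1113 in young Titan mice against 38 in young controls, this was a ratio scaled for library size of 29.3 with a counting interval at 95% of 21.2 to 41.7, and at 19–21 weeks, with 1162 against 349 reads, of 4.09 with an interval of 3.63 to 4.63. These intervals cover counting error only. With age the log2 fold change was 3.41 (SE 0.32) in controls and 0.67 (SE 0.21) in Titan mice. The age effects differed by -2.74 (SE 0.39), Titan minus control, which is a description, since the gene was chosen by these levels. By level per length *Gm6614* ranked 13054 of 13783 in young controls, 8006 in older controls, 4471 in young Titan mice and 3042 in older Titan mice.

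Because *Gm6614* resembles its neighbours, reads of *Slco1a1* could in principle be assigned to it. Only reads that map to a single place were counted, and 4.54% of the 50-base windows of the longest *Gm6614* transcript occur unchanged in another gene, all of them in the Slco1a genes or *Gm5724*. The ratio of *Gm6614* to *Slco1a1* within a library was 0.00107 ± 0.000395 in young controls, 0.0205 ± 0.00519 in young Titan mice, 0.00724 ± 0.00205 in older controls and 0.0321 ± 0.00571 in older Titan mice (SD, n = 5). *Slco1a1* was at nearly the same mean in young Titan mice, older controls and older Titan mice, while this ratio differed between those groups. A shift of reads between the genes was not tested beyond these values.

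*Gm30784*, the lincRNA between *Slco1a4* and *Slco1a1*, ran the other way. It was read 50 to 82 times in each young control, or 3.17, 3.45, 4.30, 5.00 and 5.00 CPM. The 5 young Titan mice had 0, 1, 1, 2 and 4 reads, none above 0.168 CPM. In the older controls the reads were 0, 1, 4, 8 and 20, up to 1.72 CPM, and in the older Titan mice 0, 1, 2, 2 and 2, up to 0.272 CPM. The young controls stood clear of all other groups, and the older controls were split, with 2 mice above 1 CPM and 3 within or near the range of the Titan mice.

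In summed reads *Gm30784* had 307 in young controls against 8 in young Titan mice, a ratio scaled for library size of 38.3 in favour of the controls with a counting interval at 95% of 19.2 to 89.6. At 19–21 weeks, with 33 against 7 reads, it was 3.84 with an interval of 1.67 to 10.3. The fitted log2 fold changes, which depend on the prior count at such low reads, were -5.19 (SE 0.65) and -1.96 (SE 0.85). The value at 19–21 weeks rests largely on older control 1, which gave 20 of the 33 control reads and without which it was -0.97. Between the ages the log2 fold change was -2.82 (SE 0.53) in controls and 0.41 (SE 1.09) in Titan mice, the latter from 8 and 7 reads. None of the 50-base windows of *Gm30784* occurs in another gene.

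Among the older controls, the mice with little *Gm30784* had more *Gm6614*. The 2 mice with 0 and 0.054 CPM of *Gm30784* had 7.89 and 7.07 CPM of *Gm6614*, and the 3 with 0.361, 1.05 and 1.72 CPM had 3.61, 3.43 and 4.97 CPM. This was seen in 5 mice, after their values were known, and was not tested. Among the latter 3, the mouse with the most *Gm30784* also had the most *Gm6614*. The young controls did not show such an order. Those with 3.17, 3.45, 4.30, 5.00 and 5.00 CPM of *Gm30784* had 0.644, 0.345, 0.675, 0.666 and 0.244 CPM of *Gm6614*. Over the 4 groups the levels of both genes ran in opposite order except between young and older Titan mice, where *Gm30784* was near 0 in both.

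Reads on the strand opposite to *Slco1a1*, which is the strand of *Gm30784*, showed a similar split. They numbered 7, 11, 20, 57 and 94 in young controls, 1 to 6 in young Titan mice, 1, 1, 4, 18 and 20 in older controls and 0, 0, 3, 4 and 14 in older Titan mice. The older controls with 18 and 20 such reads were those with 8 and 20 reads of *Gm30784*. In the young controls the 2 counts did not go together from mouse to mouse. Those with 50, 51, 60, 64 and 82 reads of *Gm30784* had 7, 57, 11, 94 and 20 such reads. The older Titan mouse with 14 had 19 reads opposite to *Slco1b2* as well, the highest of all mice, whereas in the others that count was 0 to 7. Against 9621 to 37119 reads on the *Slco1a1* strand these are few, and opposite to *Slco1a4* there were at most 2 in any mouse. Whether these reads belong to a transcript that continues from *Gm30784* was not tested.

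**Figure D2:**
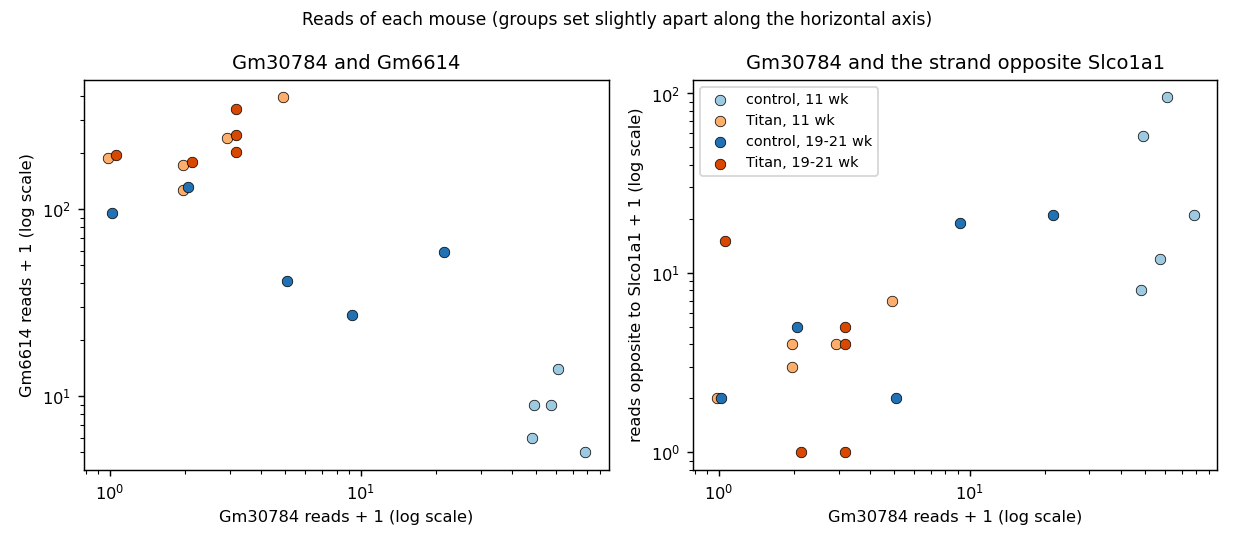
Reads of Gm6614 (left) and reads on the strand opposite to Slco1a1 (right) against reads of Gm30784, each plus 1 on log scales, 1 point per mouse and not scaled for depth. The 5 young controls with 50 to 82 reads of Gm30784 had 4 to 13 reads of Gm6614, and 2 older controls lie between them and the Titan mice on the horizontal axis.

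*Slco1a5* and *Slco1a6*, known mainly from brain, gut and kidney, were close to absent. *Slco1a5* had 12 reads over the 20 mice (1 in young controls, 0 in young Titan mice, 6 in older controls and 5 in older Titan mice) and *Slco1a6* had 19 (0, 9, 2 and 8), with at most 5 in a mouse. A count of 0 in a group allows up to 3 reads, so no fold change is given. The 9 and 8 *Slco1a6* reads in Titan mice came from 4 of 5 young and 3 of 5 older mice. Of their 50-base windows, 5.2% (*Slco1a5*) and 5.6% (*Slco1a6*) occur in another gene of the cluster, the highest shares among the members.

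Counted at an adjusted p under 0.05 in edgeR's quasi-likelihood test over all genes, 4 of the 5 tested members were past the threshold for Titan against control at 11 weeks, where 14.9% of all tested genes were (7.23% with a higher and 7.69% with a lower level in Titan mice). At 19–21 weeks it was 1 of 5 members, *Gm6614*, where 9.12% of all tested genes were (4.24% higher and 4.88% lower). With age in controls it was 3 of 5 members (*Slco1a1*, *Gm6614* and *Gm30784*), where 0.0871% of all tested genes were. With age in Titan mice it was 0 of 5 members in edgeR and in DESeq2 (2 at an unadjusted p under 0.05), where 1.25% of all tested genes were. The difference of the age effects was past the threshold for 1 of 5 members, *Gm6614*, and for 0.00726% of all tested genes. The groups did not overlap in CPM for 4 members at 11 weeks (11.9% of all tested genes), 1 at 19–21 weeks (7.63%), 3 with age in controls (1.02%) and 1 with age in Titan mice (2.97%). Since these contrasts served to choose the members, nothing is read from these shares. The young controls enter both the line comparison at 11 weeks and the age comparison in controls, so these do not give separate evidence.

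The calls of *Slco1a1* and *Gm30784* with age in controls depended on the fit. With only the control mice in the model, the age change in controls stayed past the threshold in 1 of 5 members, *Gm6614*, with log2 fold changes of 0.63 for *Slco1a1* and -2.83 for *Gm30784*. *Slco1a1* also lost its call without young control 3 or 4, at log2 fold changes of 0.61 and 0.60, and *Gm30784* lost it in 16 of 27 alternatives. *Slco1a4* with age in controls, not past the threshold in edgeR, was past it in DESeq2 at a log2 fold change of 1.16, without a filter on low counts at 1.15, without older control 2 at 1.31 and without older Titan mouse 4 at 1.16. *Gm6614* kept each of its 4 calls in all alternatives in which it was tested. As the gene was chosen by its levels in these same mice, kept calls are a description and lend it no support.

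Between the members and within 1 Mb of their outer ends lie 43 other annotated genes, of which 13 had enough reads. Of these, 2 passed the threshold at 11 weeks and 1 at 19–21 weeks, near the shares of all tested genes, 14.9% and 9.12%. *Cmas*, which activates sialic acid for glycoproteins, rose at 11 weeks from 47.5 ± 4.06 to 66.9 ± 7.19 CPM (n = 5 mice a group, SD; log2 fold change 0.49, SE 0.11, edgeR adjusted p = 0.00501) and at 19–21 weeks from 45.9 ± 9.03 to 65.0 ± 7.20 CPM (log2 fold change 0.50, SE 0.12, edgeR adjusted p = 0.00906). *Pde3a*, a phosphodiesterase of cyclic nucleotides, fell by 0.80 on the log2 scale at 11 weeks (SE 0.23, edgeR adjusted p = 0.0242), a call lost without young control 4 (adjusted p = 0.0541) or young Titan mouse 1 (adjusted p = 0.0710). The median log2 fold change of the 13 genes was 0.03 at 11 weeks and -0.05 at 19–21 weeks. *Gm22036*, a small RNA gene inside *Slco1a1* and the only tested non-member within the cluster, had a log2 fold change of 0.06 (SE 0.42, edgeR adjusted p = 0.952) at 11 weeks.

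**Figure D3:**
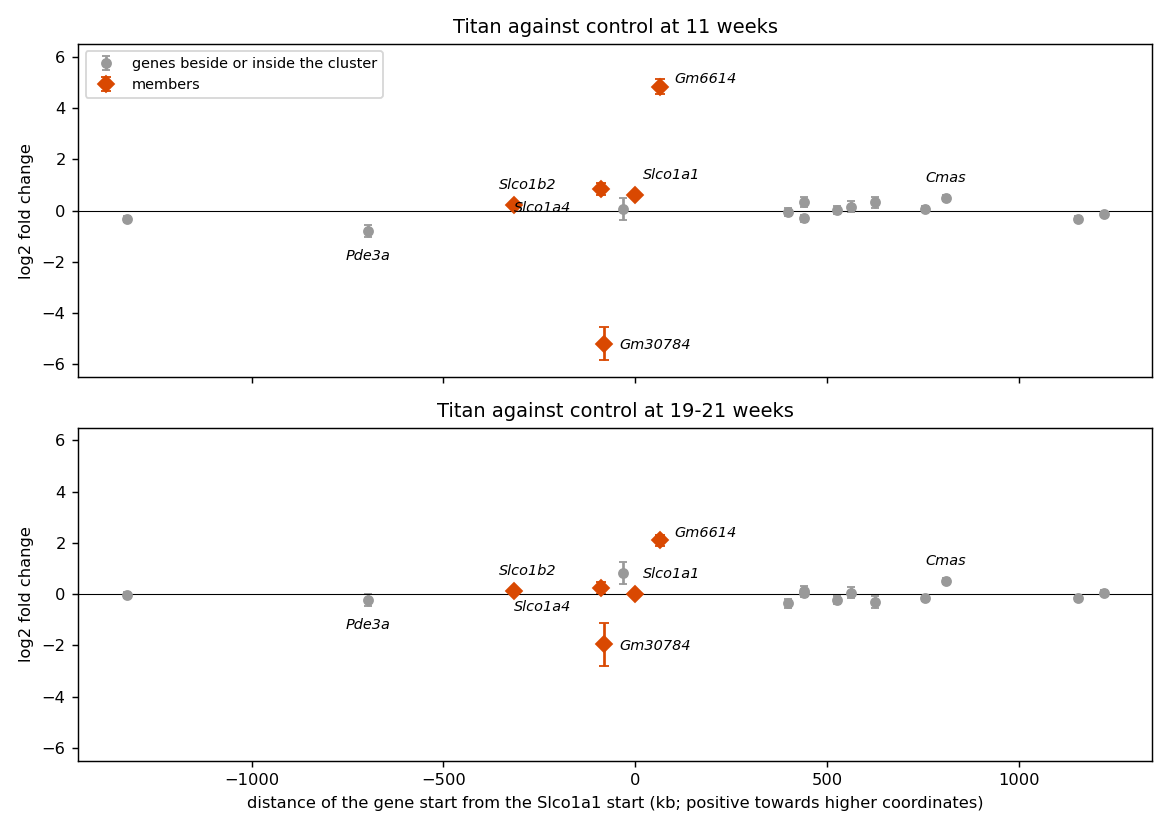
Log2 fold change of Titan against control (points, with SE bars) at 11 weeks (top) and 19–21 weeks (bottom) by the distance of each gene's start from that of Slco1a1 in kb. Members (diamonds) reach from -5.19 to 4.84 at 11 weeks, while the genes beside and inside the cluster (circles) stay between Pde3a at -0.80 and Cmas at 0.49 there.

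The Slco1 transporters work with carriers and enzymes of bile acid handling, which were listed with earlier results of these data known. The counts for this and the later lists stand beside these shares of all tested genes. In Titan mice 7.23% rose and 7.69% fell at 11 weeks, and 4.24% rose and 4.88% fell at 19–21 weeks. Of 25 tested transporters of bile acids and organic anions outside the cluster, 4 rose and 4 fell in Titan mice at 11 weeks, and 1 rose and 3 fell at 19–21 weeks, with a median log2 fold change of -0.11 and -0.07 against -0.02 and 0.01 over all tested genes. *Slc10a1*, the sodium-dependent uptake carrier that shares its cargo with the Slco1 products, had 541 ± 20.6 and 492 ± 72.3 CPM in young control and Titan mice (log2 fold change -0.14, SE 0.10, edgeR adjusted p = 0.435) and fell at 19–21 weeks from 539 ± 60.5 to 397 ± 44.3 CPM (log2 fold change -0.44, SE 0.10, edgeR adjusted p = 0.0110). *Abcb11*, the bile salt export pump, fell at 11 weeks from 1071 ± 97.03 to 726 ± 62.4 CPM (log2 fold change -0.56, SE 0.14, edgeR adjusted p = 0.0109). At 11 weeks *Slco1a1* was thus at a higher level in Titan mice than in controls while this export pump was at a lower level. Its log2 fold change at 19–21 weeks was -0.34 (SE 0.14, edgeR adjusted p = 0.152), and -0.47 without older control 5 (edgeR adjusted p = 0.0215).

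*Abcb4*, the phospholipid exporter of the canaliculus, rose from 276 ± 29.0 to 493 ± 120 CPM at 11 weeks (log2 fold change 0.83, SE 0.14, edgeR adjusted p = 0.000446) and from 280 ± 43.9 to 404 ± 38.0 CPM at 19–21 weeks (log2 fold change 0.53, SE 0.14, edgeR adjusted p = 0.0235). The call at 19–21 weeks was lost without older control 1 or 2 or older Titan mouse 2, with adjusted p values of 0.0584, 0.0665 and 0.0530. *Atp8b1*, a lipid flippase of the same membrane, fell at both ages, by 0.48 on the log2 scale (edgeR adjusted p = 0.00546 at 11 weeks and 0.00995 at 19–21 weeks). *Slc10a2*, best known as the bile acid carrier of the ileum and bile ducts, rose at 11 weeks from 18.1 ± 8.40 to 47.2 ± 5.84 CPM (log2 fold change 1.37, SE 0.30, edgeR adjusted p = 0.00312). *Slc47a1*, an exporter of organic cations, rose by 0.65 (edgeR adjusted p = 0.00241), and *Slc22a30*, a member of the organic anion carrier family, fell by 0.61 (edgeR adjusted p = 0.000478) on that scale at 11 weeks. *Abcg2*, an efflux pump for drugs and sulphate conjugates, fell by 0.59 at 19–21 weeks (edgeR adjusted p = 0.0199), a call lost without older control 2 (adjusted p = 0.0511) or 3 (adjusted p = 0.0619) and with only the older mice in the fit (adjusted p = 0.0719).

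Among 17 tested genes of bile acid synthesis and conjugation, 10 fell in Titan mice at 11 weeks, and 2 fell at 19–21 weeks. *Cyp7a1*, the rate-limiting enzyme of the classical pathway, fell at 11 weeks from 151 ± 21.8 to 61.6 ± 22.8 CPM (log2 fold change -1.29, SE 0.30, edgeR adjusted p = 0.00566) and had 132 ± 57.7 and 142 ± 52.3 CPM in older control and Titan mice. *Cyp7b1* and *Cyp27a1*, enzymes of the alternative pathway, fell by 2.66 (edgeR adjusted p = 7.28e-06) and 0.69 (edgeR adjusted p = 7.88e-05) on the log2 scale at 11 weeks, and *Cyp2c70*, which makes the muricholic acids of mice, fell by 1.81 (edgeR adjusted p = 8.84e-05). At 19–21 weeks the lower genes were *Akr1d1*, the bile acid 5-beta-reductase, at a log2 fold change of -1.42 (edgeR adjusted p = 0.000260), and *Cyp8b1*, the sterol 12-alpha-hydroxylase, at -1.44 (edgeR adjusted p = 0.0237). *Cyp8b1* lost that call without older Titan mouse 2, 3 or 4, with adjusted p values of 0.0541, 0.0579 and 0.0517.

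Of 24 tested regulators of bile acid and hepatocyte genes, 2 passed the threshold at 11 weeks and 1 at 19–21 weeks. These counts are below the shares of all tested genes, 14.9% and 9.12%. At 11 weeks *Nfe2l2*, a transcription factor of the response to oxidative stress, rose (log2 fold change 0.82, SE 0.16, edgeR adjusted p = 0.00125). *Foxa2*, a hepatocyte factor, fell at that age (log2 fold change -0.66, SE 0.18, edgeR adjusted p = 0.0143). *Klb*, the co-receptor of the gut hormone FGF15, fell at 19–21 weeks (log2 fold change -0.54, SE 0.11, edgeR adjusted p = 0.00316). *Nr1h4*, the bile acid receptor FXR, had log2 fold changes of -0.04 and 0.08 (edgeR adjusted p = 0.818 and 0.649). Among 17 tested target genes of the drug receptors CAR and PXR, of which *Slco1a4* is known as another, 5 fell at 11 weeks, and 5 fell and 1 rose at 19–21 weeks. *Ces2a*, a carboxylesterase among them, fell by 1.23 (edgeR adjusted p = 4.77e-07) and 0.76 (edgeR adjusted p = 0.000160) on the log2 scale at the 2 ages. By sign the list was mixed, with 8 genes above 0 and 9 below at 11 weeks and 6 and 11 at 19–21 weeks. The group means of *Slco1a4* were higher in Titan mice at both ages, with overlap between the groups at 19–21 weeks.

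Because *Slco1a1* and *Slco1a4* are known for opposite sex bias, they were set beside the other sex-biased liver genes, again listed with earlier results known. Of 15 tested male-biased genes, 13 fell in Titan mice at 11 weeks, with a median log2 fold change of -1.32, and 1 fell at 19–21 weeks, with a median of -0.35. *Susd4* fell from 42.5 ± 16.6 to 3.04 ± 2.37 CPM (log2 fold change -3.89, SE 0.48, edgeR adjusted p = 1.63e-05), *Gstp1*, a glutathione transferase, fell from 159 ± 39.5 to 43.1 ± 14.7 CPM (log2 fold change -1.88, SE 0.26, edgeR adjusted p = 6e-05), and *Cyp7b1*, also named above, from 694 ± 185 to 110 ± 41.7 CPM. *Keg1* was the gene that fell at 19–21 weeks (log2 fold change -0.59, SE 0.12, edgeR adjusted p = 0.00354). *Slco1a1*, itself male-predominant, did not go with them, since its level in young Titan mice was above that in young controls in all 5 mice.

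Of 17 tested female-biased genes, 11 rose and 1 fell in Titan mice at 11 weeks, with a median log2 fold change of 2.68, and at 19–21 weeks 0 passed the threshold in edgeR and in DESeq2 (4 at an unadjusted p under 0.05), at a median of 0.38. *A1bg* rose from 0.438 ± 0.733 to 565 ± 515 CPM (edgeR adjusted p = 2.82e-05), *Acot3*, an acyl-CoA thioesterase, from 1.13 ± 1.10 to 23.5 ± 14.5 CPM (edgeR adjusted p = 7.11e-05), and *Cyp17a1*, a steroid hydroxylase, from 0.347 ± 0.163 to 3.18 ± 1.75 CPM (edgeR adjusted p = 9.15e-05). *Cyp3a16* fell (log2 fold change -1.42, SE 0.37, edgeR adjusted p = 0.0123), a call lost without young control 5 (adjusted p = 0.0534). *Slco1a4*, female-predominant, had the direction of this list at 11 weeks with a log2 fold change of 0.85, smaller than the median of the list. It did not go with the list over age. From 11 to 19–21 weeks the median log2 fold change of the list was -1.24 in Titan mice and -0.06 in controls. That of *Slco1a4* was 0.56 and 1.16. For the difference of the age effects, 0 of 15 male-biased and 0 of 17 female-biased genes passed the threshold in edgeR, where 0.00726% of all tested genes did. At an unadjusted p under 0.05 they numbered 9 and 8, and DESeq2 put 3 and 5 past the threshold. The median difference, Titan minus control, was 1.13 over the male-biased genes, with 14 above 0 and 1 below. Over the female-biased genes it was -2.41, with 2 above 0 and 15 below.

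Of 15 tested genes of growth hormone signalling, 2 rose in Titan mice at 11 weeks, where DESeq2 put 4 past the threshold, and 0 passed it at 19–21 weeks in edgeR and in DESeq2 (3 at an unadjusted p under 0.05). In edgeR 14.9% and 9.12% of all tested genes passed it at the 2 ages, so the count at 11 weeks is near that share. *Trim24*, a transcriptional cofactor, rose by 0.74 (SE 0.19, edgeR adjusted p = 0.00907) and *Stat5a* by 0.49 (SE 0.16, edgeR adjusted p = 0.0384) on the log2 scale. The call of *Stat5a* was lost without young control 2, 3 or 5 or young Titan mouse 1, 2 or 5, at adjusted p values of 0.0520 to 0.0992. *Ghr*, the growth hormone receptor, had log2 fold changes of -0.25 and -0.21 at the 2 ages (edgeR adjusted p = 0.0552 and 0.121). At 11 weeks it was past the threshold in DESeq2 (adjusted p = 0.0271) and in edgeR without older control 1 or 5, young control 1 or young Titan mouse 4 (adjusted p = 0.0320 to 0.0499), and at 19–21 weeks without older control 5 (adjusted p = 0.0377). *Stat5b*, the form that carries the male pulse pattern in the liver, had log2 fold changes of -0.20 and -0.23 (edgeR adjusted p = 0.319 and 0.266).

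**Figure D4:**
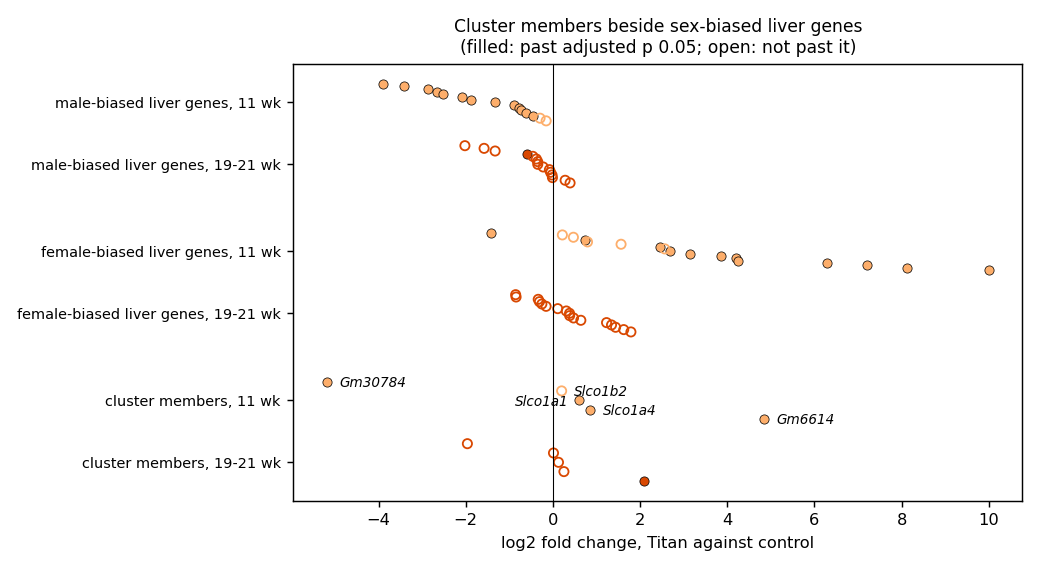
Log2 fold changes of Titan against control (horizontal axis) for male-biased genes, female-biased genes and cluster members at each age, 1 point per gene and filled where the adjusted p was under 0.05 in edgeR. At 11 weeks 13 of 15 male-biased genes are filled and below 0, while Slco1a1 lies at 0.60.

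The genes most like 3 of the members over the 20 mice were found by the root mean square difference of centred log2 CPM, for the members with the widest range of group means. For *Gm6614*, whose own root mean square deviation was 2.03, they were *Ephb6* at 1.04, *Tpm2* at 1.16 and *Tnfaip8l3* at 1.17. For *Gm30784*, with 1.83, they were *Gm10320* at 0.971, *Olfr16* at 1.09 and *Gm48199* at 1.18. For *Slco1a4*, with 0.635, they were *Gm16580* at 0.437, *Emp2* at 0.450 and *Tfeb* at 0.453. None of these genes lies in the cluster.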

How the data were processed

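Reads per gene from liver libraries of 20 mice (5 per group) were analysed. The authors mapped reads to GRCm38 with STAR 2.5.3a and deposited raw counts per gene, unnormalised, for both strands together and for each strand, leaving out reads at several places. Samples were grouped by line and age from the labels. The strand with 96.8% to 97.5% of stranded reads was used. Between 43.4% and 58.3% of reads named no gene and were left out, as were 1562 Y-linked and 109 histone genes, following the study's methods. Symbols and positions came from GENCODE M21 (55480 IDs matched), promoters from RefSeq (GRCm38.p6).

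Counts were fitted in 1 model of the 4 groups with edgeR 4.0.16 in R 4.3.3 (filterByExpr, TMM, quasi-likelihood F tests, two-sided, Benjamini-Hochberg adjustment over 13783 genes, threshold 0.05). The SE was taken from the log2 fold change and its F value (size over root F). In place of the study's DESeq2 as the main test, DESeq2 1.42.0 was an alternative, beside RLE size factors, both strands, no filter, at least 10 counts in every mouse, fits restricted to the compared groups, a replicate block, retained Y and histone genes, and each mouse left out. Ratios of summed reads have exact conditional intervals at 95%. Transcripts were compared with BLAST 2.17.0. Log2 CPM used a prior count of 2. Python 3.11.15 made tables and figures with matplotlib 3.10.9. Tests were checked on simulated data.

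The members and gene lists were chosen with earlier results of these data known. Named genes were all members, per list and comparison the 3 genes with the smallest p past the threshold in each direction (not all are described), and *Slc10a1*, *Abcb11*, *Cyp7a1*, *Nr1h4*, *Ghr* and *Stat5b*. No pair of libraries of a group agreed within counting noise. The file names show up to 3 libraries with the same index sequence. Whether these were sequenced in separate pools, lanes or runs is not given in the sources used here. No values within a pool could therefore be made.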

Additional observations from a re-analysis of the deposited data

Results flagged for a closer look

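The age effect on *Gm6614* differed between the lines by -2.74 on the log2 scale, Titan minus control (SE 0.39). The gene was chosen by its levels in these same 4 groups, so the value is a description and no test supports it. The level of *Gm6614* was 10.7-fold higher in older than in young controls and 1.59-fold higher in older than in young Titan mice. No mouse stood apart from its group in any of the 5 tested members by Dixon's rule for 5 values, in 20 groups examined.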

How the results depend on the processing

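No direction of a called value turned in any of the alternatives. Asking for at least 10 counts in every mouse removed *Gm6614* and *Gm30784* from the table, so fewer members were tested. The members past the threshold then came to 2 at 11 weeks and 0 at 19–21 weeks. They came to 1 with age in controls and 0 for the difference of the age effects. Sex-biased and growth hormone genes past the threshold at 11 weeks then numbered 16 in place of 26. In DESeq2 there were 2 members for the difference of the age effects and 11 bile acid genes at 19–21 weeks in place of 7. With only the groups compared in the fit, 1 member was past the threshold with age in controls. Sex-biased and growth hormone genes at 19–21 weeks numbered 1, and 2 with counts over both strands, with no filter or with only the groups compared. The cause of these changes was not tested. Leaving out a mouse gave 4 to 4 members at 11 weeks, 1 to 1 at 19–21 weeks, 0 to 0 with age in Titan mice, 1 to 4 with age in controls and 1 to 1 for the difference. It gave 18 to 21 and 6 to 10 bile acid genes, 22 to 29 and 1 to 3 sex-biased and growth hormone genes, and 1 to 3 and 1 to 2 genes beside the cluster at the 2 ages. Of the values of single genes, 2676 stayed on their side of the threshold, 141 lost their call and 12 gained it. Of the shares of level per length 160 moved by less than 1 SD and 8 by more, mostly with the longest transcript as the length.

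The replicate numbers do not pair the mice. Deviations of mice with the same number correlated at -0.144 to 0.107, and only 1 pair was over 0.1. With the replicate block the members past the threshold were again 4, 1, 0, 3 and 1, and the bile acid genes 20 and 7. Depth limits *Slco1a5*, *Slco1a6* and the *Gm30784* values of Titan mice, which rest on 0 to 5 reads per mouse.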

Other observations

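*Slco1c1*, a thyroid hormone transporter of the brain beside the cluster, was too low to be tested and was chosen after its values were seen. The older controls had 2, 8, 15, 17 and 19 reads of it, up to 1.71 CPM, and the 15 mice of the other 3 groups had 0 to 7 reads, up to 0.591 CPM. Of the older controls 4 lay above every other mouse in CPM and the fifth, at 0.172 CPM, lay among them. *Gm20400*, an antisense transcript at *Slco1a6*, had 52 reads in all mice and at most 9 in a mouse.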
